A study of Drosophila melanogaster with 2 samples.

Results

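The genes described here are 10 Drosophila melanogaster genes for histone deacetylases and the corepressors that carry them: gro, CtBP, Sirt1, HDAC1, Mi-2, MTA1-like, MEP-1, Sin3A, CoRest and Su(var)3-3. These members were named as a list by gene symbol and are 10 of 13945 protein-coding genes on the major chromosome arms. For each one, every summit in the gene body and within 2 kb of it was taken from the authors' dm6 peak lists of a Su(var)2-10 chromatin immunoprecipitation. The chromatin came from whole Drosophila embryos, males and females pooled, collected over 0 to 24 h of development from 1 stable transgenic line that makes Su(var)2-10 fused at its C-terminus to GFP. It was sonicated to 200 to 800 bp and precipitated with an antibody to GFP in 2 biological replicates, labelled 2 and 3. All samples belong to this 1 group, and no second genotype, tag or stage was analysed here, so the members are set beside all protein-coding genes and not beside another condition. A whole embryo mixes all cell types and ages in that span, so binding in few cells and weak binding in many cannot be told apart.

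Su(var)2-10 is the Drosophila PIAS protein, a SUMO E3 ligase that helps attach the small modifier SUMO to chromatin proteins. Histone deacetylases remove acetyl groups from histone tails and are brought to genes by corepressors, proteins and complexes that DNA-binding transcription factors recruit. In the fly embryo Groucho and CtBP serve the repressors that pattern the body axis, while the NuRD, dMec, Sin3 and CoREST complexes join a deacetylase or a remodelling ATPase to scaffold and demethylase subunits. The comparison asks where the SUMO ligase was found along the genes that encode this machinery. It measures binding at DNA and says nothing of expression or of the proteins these genes make.

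The sequences under the strongest reproducible summits of 5 members, and under 2 of the 3 summits of CtBP, are printed because the results below turn on these places. Each is centred on its summit with up to 100 bp on each side, on the strand of the member, from RefSeq Release 6, the dm6 build. They lie at chr3R:26042377-26042577 on the plus strand for gro, chr2L:13165146-13165346 on the plus strand for Sirt1, chr3L:4624798-4624998 on the plus strand for HDAC1, chr3L:19903166-19903366 on the minus strand for Mi-2 and chr3R:5648877-5649064 on the minus strand for MTA1-like. The last of these is 188 bp long because 13 bp of a neighbour's untranslated exon were left off. The CtBP sequences lie at chr3R:13012521-13012721 and chr3R:13016492-13016692, both on the plus strand. Capitals mark exact matches on either strand to CGATA, the core of BEAF-32 sites, or to GAGAG, the repeat bound by the GAGA factor.
gro: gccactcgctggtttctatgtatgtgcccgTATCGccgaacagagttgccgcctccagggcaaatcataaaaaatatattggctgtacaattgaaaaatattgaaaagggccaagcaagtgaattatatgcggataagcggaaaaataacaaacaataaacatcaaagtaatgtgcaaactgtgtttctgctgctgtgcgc
Sirt1: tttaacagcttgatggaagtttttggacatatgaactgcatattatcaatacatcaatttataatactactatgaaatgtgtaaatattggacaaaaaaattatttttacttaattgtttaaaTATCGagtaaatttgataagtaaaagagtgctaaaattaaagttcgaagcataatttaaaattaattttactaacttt
HDAC1: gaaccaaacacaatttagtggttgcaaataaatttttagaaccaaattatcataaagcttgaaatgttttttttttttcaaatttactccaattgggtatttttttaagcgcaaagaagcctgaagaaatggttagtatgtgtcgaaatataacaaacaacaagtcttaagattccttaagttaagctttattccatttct
Mi-2: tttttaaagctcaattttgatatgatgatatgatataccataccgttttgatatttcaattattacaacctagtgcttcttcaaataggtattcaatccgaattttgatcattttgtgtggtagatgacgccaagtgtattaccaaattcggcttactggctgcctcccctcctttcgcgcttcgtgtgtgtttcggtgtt
MTA1-like: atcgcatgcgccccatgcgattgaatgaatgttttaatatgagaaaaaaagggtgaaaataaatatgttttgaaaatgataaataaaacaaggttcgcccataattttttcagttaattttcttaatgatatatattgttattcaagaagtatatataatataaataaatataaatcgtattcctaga
CtBP, inside the outermost start: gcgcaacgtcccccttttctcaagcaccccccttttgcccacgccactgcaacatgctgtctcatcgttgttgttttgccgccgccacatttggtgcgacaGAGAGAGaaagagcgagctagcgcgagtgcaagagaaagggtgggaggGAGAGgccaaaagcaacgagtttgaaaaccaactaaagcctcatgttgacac
CtBP, upstream of an inner start: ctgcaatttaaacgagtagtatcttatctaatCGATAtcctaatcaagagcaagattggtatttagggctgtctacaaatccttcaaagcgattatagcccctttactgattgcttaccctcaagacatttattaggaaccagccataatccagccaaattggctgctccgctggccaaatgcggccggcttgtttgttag

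Of the 10 members, 7 held at least 1 reproducible summit in the gene body or within 2 kb, against 22.6% of all protein-coding genes. These were gro, Sirt1, HDAC1, Mi-2, MTA1-like, Sin3A and CtBP, while MEP-1, CoRest and Su(var)3-3 held none. A reproducible summit is one of the 2942 that the authors kept after their irreproducible discovery rate (IDR) filter. These are also the 2942 pooled peaks of highest signal, from 128.859 up. The name therefore does not mean that the replicates agreed at each peak. Within 500 bp of one of their own annotated start sites, 4 of the 10 members had such a summit, against 12.1% of all protein-coding genes. These were gro, Sirt1, MTA1-like and Sin3A. Member windows were longer than usual, with a median of 13.5 kb against 6.17 kb over all protein-coding genes, and longer windows hold more summits. The count of 7 members rests partly on flanks and on summits nearer to starts of neighbours. With no margin around the gene body it was 4, namely gro, Mi-2, Sin3A and CtBP, against 7.66% of all protein-coding genes. Where only summits nearest to a protein-coding start of the gene itself were counted it was also 4, namely gro, Sirt1, Sin3A and CtBP, against 12.9%. Among genes with a window at least as long as the 12.968 kb of CoRest, 4 of 6 members had a reproducible summit, against 41.3% of all 2135 such genes. No test was made of these counts, since there is 1 group and the genes were picked with the results known.

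The 7 members held 13 reproducible summits in 10 separate regions. Their pooled signal, the score the authors gave each peak of the pooled replicates with no fixed unit, ran from 140 to 452 with a median of 178. Over all 2942 reproducible peaks it ran from 129 to 2409 with a median of 195, and 5 of the 13 lay above that median. The 5 were the leading summits of gro, Sin3A, Sirt1, HDAC1 and Mi-2. The best-placed member summit ranked 240th of the 2942. The 30000 candidate peaks of the pooled list, from which the reproducible ones were drawn, reached down to 34.7, and the highest signal among candidates that did not pass was 128.832.

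**Figure D1:**
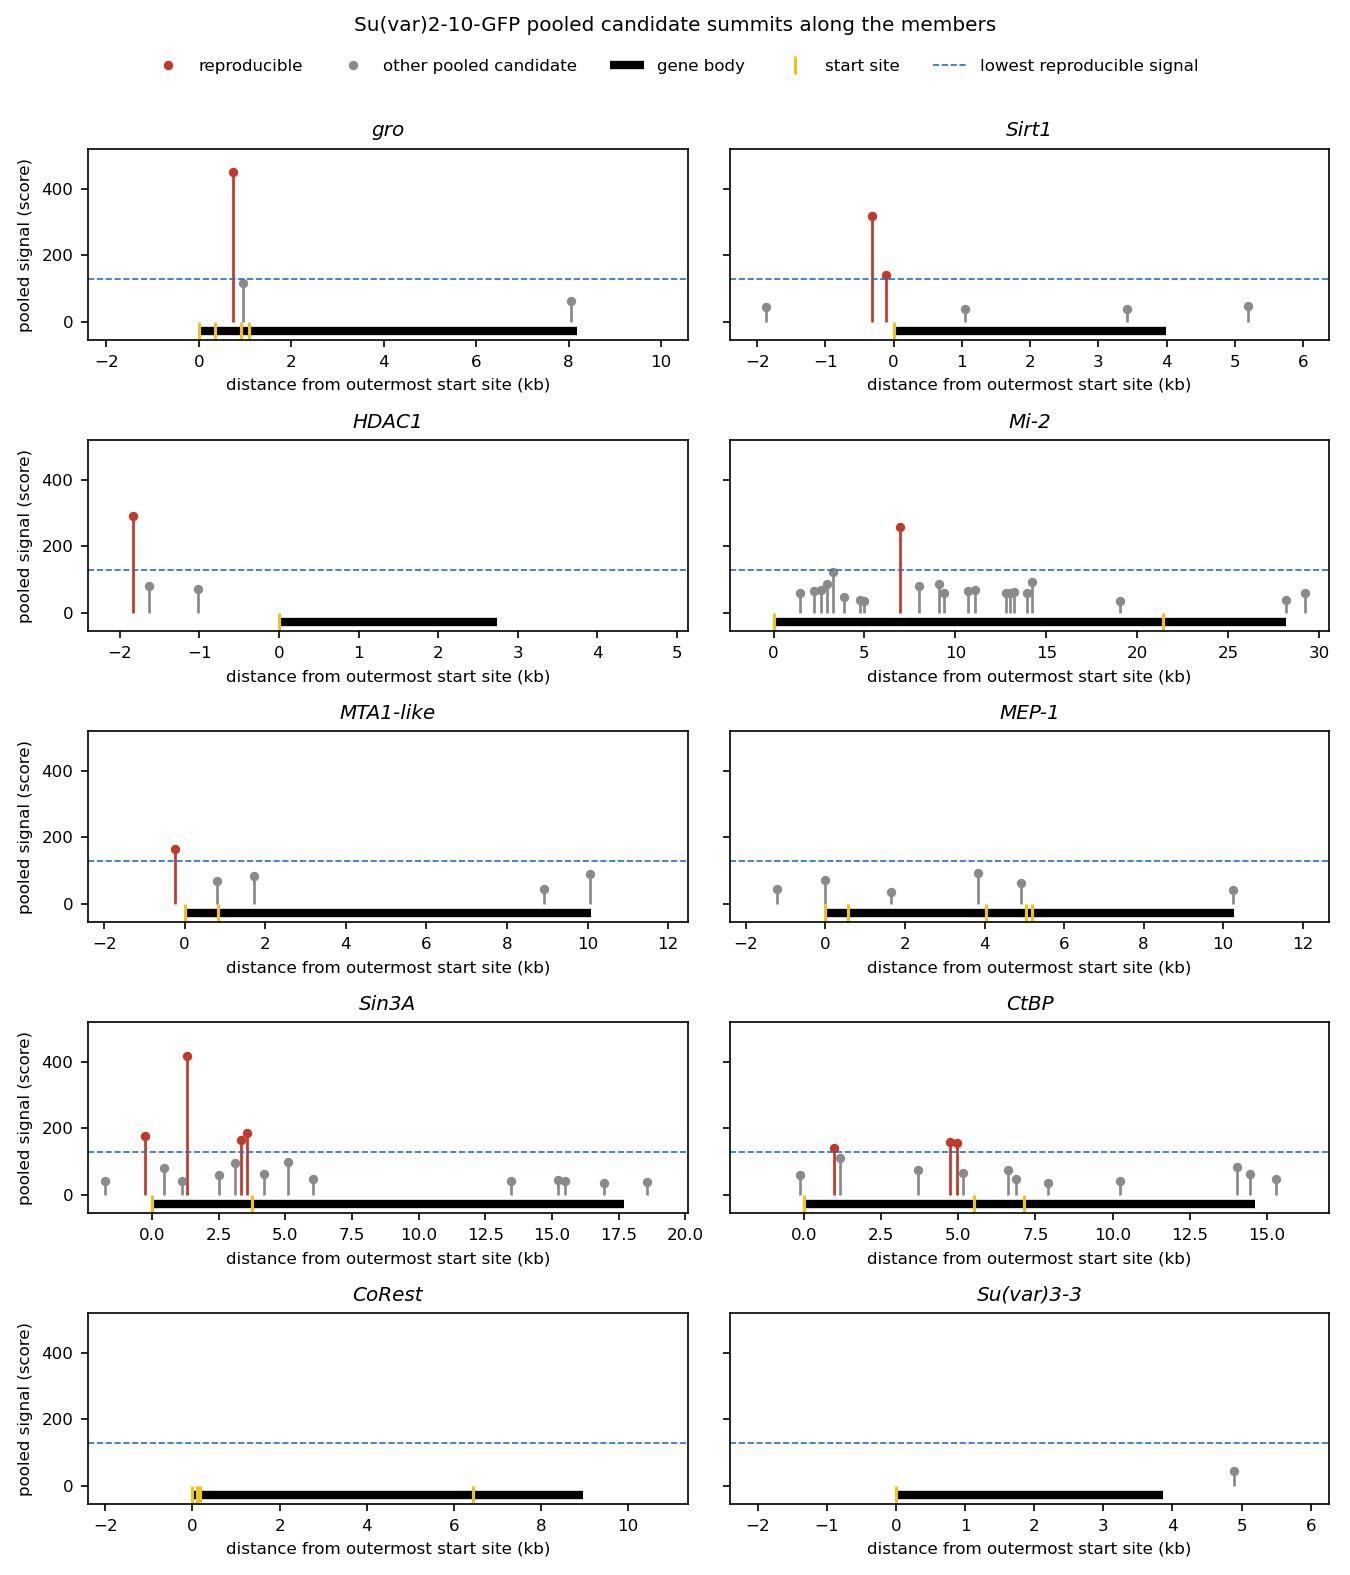
Pooled signal (vertical axis, the authors' score) of every pooled candidate summit along each member, by distance in kb from the outermost start site in the direction of transcription; red stems are reproducible summits, grey stems other candidates, black bars gene bodies and yellow ticks start sites. The tallest stems are those of gro at 452 and Sin3A at 417, and CoRest has none. Grey stems lie below the dashed line, the lowest reproducible signal of 129, by construction, as the reproducible peaks are those of highest pooled signal.

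Groucho, encoded by gro (FBgn0001139), is a corepressor for Hairy and other repressors and binds HDAC1. The gene lies on arm 3R at 26041736 to 26049911 of dm6, plus strand, in the cluster of Enhancer of split genes. Its reproducible summit at 26042477 had a pooled signal of 452 and ranked 240th, the highest among the members. It fell in an intron 164 bp upstream of the third of 4 annotated start sites, and 741 bp and 397 bp downstream of the first and the second. The nearest start of another gene, E(spl)m8-HLH, was 2237 bp away. In replicate 2 the summit lay 12 bp away with a signal of 265 and rank 183, and in replicate 3 it lay 52 bp away with a signal of 149 and rank 656. Both replicates thus placed it among their best peaks within the intron. A second candidate, 48 bp downstream of the same inner start, had a pooled signal of 118 and rank 3386, just below the threshold. Replicate 2 had a summit of 94.4 at 1 bp from it, while the nearest summit of replicate 3 was 160 bp away and was the one already counted. At the outermost start itself no pooled candidate lay within 500 bp, although each replicate listed 1 there, of 30.8 in replicate 2 and 47.5 in replicate 3. Among the 1451 reproducible peaks with a protein-coding start no more than 500 bp away, gro stood 153rd, just below the peak at CG31431 at 453 and just above the one at neur at 452, a neurogenic gene.

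CtBP (FBgn0020496) encodes the C-terminal binding protein, a short-range corepressor. It covers 13011649 to 13026275 on arm 3R, plus strand, with 3 start sites. Its 3 reproducible summits, of 140, 158 and 156, were among the weakest of the members, with pooled ranks of 2546, 2083 and 2115. All were intronic. The first, at 13012621, lay 972 bp downstream of the outermost start. The others, at 13016378 and 13016592, lay 783 bp and 569 bp upstream of the second start, with 214 bp between them. Replicate 2 had summits within 50 bp of all 3, with signals of 79.0, 44.5 and 43.3 and ranks of 2019, 5417 and 5684. Replicate 3 had them within 16 bp, with signals of 80.0, 99.6 and 103 and ranks of 2409, 1573 and 1486. The summits upstream of the second start were thus far down the list of replicate 2 and within the best 2942 of replicate 3. Candidates within 500 bp of each of the 3 start sites had pooled signals of 60.0, 66.1 and 48.5 and did not pass, and replicate 2 had none there. The summit at 13012621 is the CtBP sequence above with 3 GAGAG matches.

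Sirt1 (FBgn0024291) encodes an NAD-dependent deacetylase of the sirtuin family. It lies on arm 2L at 13165564 to 13169551, plus strand, with 1 start site. Both of its reproducible summits were upstream of that start, at 318 bp with a pooled signal of 317 and rank 566, and at 117 bp with a signal of 142, rank 2501 and a q-value of 0.0118. The pair lay 201 bp apart. The replicates each had a single summit here, with a signal of 179 and rank 447 in replicate 2 and 114 and rank 1191 in replicate 3. The replicate 2 summit was 22 bp from the stronger pooled summit and 179 bp from the weaker one. That of replicate 3 was 71 bp from the weaker one and 130 bp from the stronger, between the 2 pooled summits. The place is shared with DnaJ-H, a gene for a DnaJ-type cochaperone on the minus strand, since both summits lie in an intron of its longer transcript and the stronger one is 228 bp upstream of its inner start. The stronger summit is nearer to that start than to the start of Sirt1, and the weaker one is nearer to Sirt1. By pooled signal the stronger one stood 341st among the peaks near coding start sites, between those of Gpat4 and CG8132, both at 317. Candidates in the rest of the Sirt1 window reached no more than 48.6.

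HDAC1 (FBgn0015805), also known as Rpd3, encodes the catalytic deacetylase that the NuRD, Sin3 and CoREST complexes share. It lies on arm 3L at 4626734 to 4629467, plus strand. Its only reproducible summit, at 4624898, had a pooled signal of 292 and rank 661. Both replicates put the summit at exactly the same base, with a signal of 152 and rank 639 in replicate 2 and 123 and rank 1016 in replicate 3. It was the most tightly placed of the 13. It lay 1836 bp upstream of HDAC1, in an intron of Src64B, a gene for a Src-type tyrosine kinase on the minus strand, and 1234 bp inside the nearest start of that gene. The other candidates of the window, at 82.1 and 72.0, were in the same intron. No candidate in any of the 4 lists lay within 500 bp of the start site of HDAC1 or in its gene body. HDAC1 is therefore counted among the 7 through its flank alone.

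Mi-2 (FBgn0262519) encodes the chromatin remodelling ATPase of NuRD and of dMec. It covers 19882051 to 19910215 on arm 3L, minus strand, and is the longest member at 28165 bp. Its window held 22 pooled candidates, of which 1 passed, at 19903266 with a signal of 257 and rank 842. The summit was 6949 bp downstream of the outermost start, in an intron of Mi-2 and also of Su(Tpl), an elongation factor gene that overlaps it. Its nearest annotated starts, of an antisense RNA and of Su(Tpl), were 6099 bp and 6144 bp away, the greatest distance from a start among the 13. Replicate 2 had the summit at the same base with a signal of 144 and rank 706, and replicate 3 had it 29 bp away with a signal of 109 and rank 1309. The next candidate, 3271 bp from the outermost start, reached 122, with replicate summits at 5 bp and 52 bp from it, and did not pass. Neither of the 2 start sites of Mi-2 had a pooled candidate within 500 bp. Replicate 2 listed 1 of 21.0 at the inner start and replicate 3 listed 2 at the outer one, the stronger of 26.1.

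MTA1-like (FBgn0027951) encodes a subunit of NuRD. It covers 5638655 to 5648738 on arm 3R, minus strand. Its reproducible summit, at 5648977, was intergenic, 239 bp upstream of its outermost start and 88 bp upstream of the start of Sec23, a gene for a vesicle coat protein that runs the other way. Its pooled signal was 165, its rank 1920 and its q-value 0.00495. The replicate ranks differed here more than at any other matched member summit. Replicate 2 had a summit 34 bp away with a signal of 35.4 and rank 8489, while replicate 3 had it at the same base with a signal of 118 and rank 1098. The call thus leans on replicate 3, and with the best 2942 peaks of replicate 2 alone MTA1-like had none. At the inner start a candidate of 67.4, 19 bp upstream, did not pass.

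MEP-1 (FBgn0035357) encodes a zinc finger protein that joins Mi-2 in dMec. It covers 2631715 to 2641984 on arm 3L, plus strand, with 5 start sites. None of its 6 pooled candidates passed. The strongest, 200 bp upstream of the start at 2635762, had a pooled signal of 91.5 and rank 5168, with a summit of 53.2 and rank 3953 at 133 bp from it in replicate 2 and one of 38.0 and rank 9850 at 39 bp in replicate 3. Further candidates lay by start sites, of 72.8 at 9 bp from the outermost one and 63.2 at 127 bp from another. Both replicates listed summits within 500 bp of 4 of the 5 starts, all at signals that rank below the best 2942. MEP-1 was the only member with fewer candidates in replicate 3 than in replicate 2, at 5 against 7.

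CoRest (FBgn0261573) encodes the corepressor that holds Su(var)3-3, the fly Lsd1 demethylase of histone H3 lysine 4. CoRest covers 19521929 to 19530896 on the X and was the only member with no pooled candidate at all. Replicate 2 listed 1 candidate of 22.8 at rank 21074, and replicate 3 listed 3, the best of 24.1 at rank 22569. None lay within 500 bp of any of its 4 start sites. A window that long without a pooled candidate is uncommon, at 4.22% of the 2135 genes with windows at least as long, whose median was 7. Su(var)3-3 (FBgn0260397) lies at 20226381 to 20230250 on arm 3L and had 1 pooled candidate, of 44.6 and rank 19360, beyond its 3′ end. Replicate 3 had a candidate of 26.0 at rank 19886 at 119 bp from it, and replicate 2 listed none in the window. Of the 10 members 9 had a pooled candidate in the window, against 72.5% of all protein-coding genes. The 2 partners CoRest and Su(var)3-3 thus had the fewest candidates among the members. These counts take no account of window length, and the window of Su(var)3-3, at 7870 bp, was shorter than that of CoRest.

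Sin3A (FBgn0022764) encodes the scaffold of the Sin3 deacetylase complex and covers 12575240 to 12592917 on arm 2R, minus strand. It held 4 reproducible summits, more than any other member. The strongest, at 12591611, had a pooled signal of 417 and rank 298 and lay in an intron 1306 bp downstream of the outermost start. Replicate 2 had a summit 12 bp from it with a signal of 214 and rank 309, and replicate 3 had one 110 bp from it with 218 and rank 256. It was the best-ranked member summit in replicate 3. Another, at 12593170, was intergenic, 253 bp upstream of the outermost start and 434 bp from the start of Amph, the amphiphysin gene on the other strand, with a signal of 178 and rank 1697. It was listed in both replicates, 26 bp away at 66.5 and rank 2721 in replicate 2 and 84 bp away at 117 and rank 1124 in replicate 3. The remaining pair, at 12589367 and 12589569, had signals of 185 and 164 and lay 202 bp apart, 215 bp and 417 bp upstream of the inner start, in exons of the overlapping non-coding gene CR30055. For this pair replicate 3 had summits 8 bp and 10 bp away with signals of 145 and 109 and ranks of 704 and 1302. Replicate 2 had no overlapping peak, its nearest summit being 1021 bp and 819 bp away from them. The pair at the inner start of Sin3A was therefore listed in 1 replicate only, while those near the outermost start and in the intron had overlapping peaks in both. Signal below the floor of the replicate 2 list cannot be seen here. Among peaks near coding start sites the stronger of the pair stood 892nd, between lqfR and CG15646, both at 185. The summit of MTA1-like stood 1042nd, between Cyp317a1 and SamDC at 165.

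The replicates did not place all member summits alike. Of the 13 member summits, 8 lay no more than 100 bp from a summit of each full replicate list, which is 61.5%, against 88.9% of all reproducible peaks. The 5 that did not were both summits of Sirt1, and 3 of the 4 of Sin3A, including its strongest, for which replicate 3 had a summit 110 bp away. Within 100 bp of a summit in replicate 2 were 10 of the 13, against 93.6% of all reproducible peaks, and in replicate 3 11 of the 13, against 94.7%. In terms of peaks and not summits, 11 of 13 overlapped the nearest replicate 2 peak, against 99.6% of all reproducible peaks, and 13 of 13 the nearest replicate 3 peak, against 2941 of 2942, or 100% when rounded. Among the best 2942 peaks of both replicates, with a summit within 100 bp, were 5 of 13, against 60.5% of all reproducible peaks. These were gro, HDAC1, Mi-2, the summit of Sin3A beyond its outermost start and the first of CtBP. The median rank of the nearest replicate summit was 2019 in replicate 2 and 1191 in replicate 3 for the members, against 1472.5 and 1502.5 for all reproducible peaks. The nearest replicate 2 summit ranked beyond 2942 at 5 of the 13, in MTA1-like, Sin3A and CtBP, and that of replicate 3 at none. That count was not made over all reproducible peaks, so it has no share beside it.

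**Figure D2:**
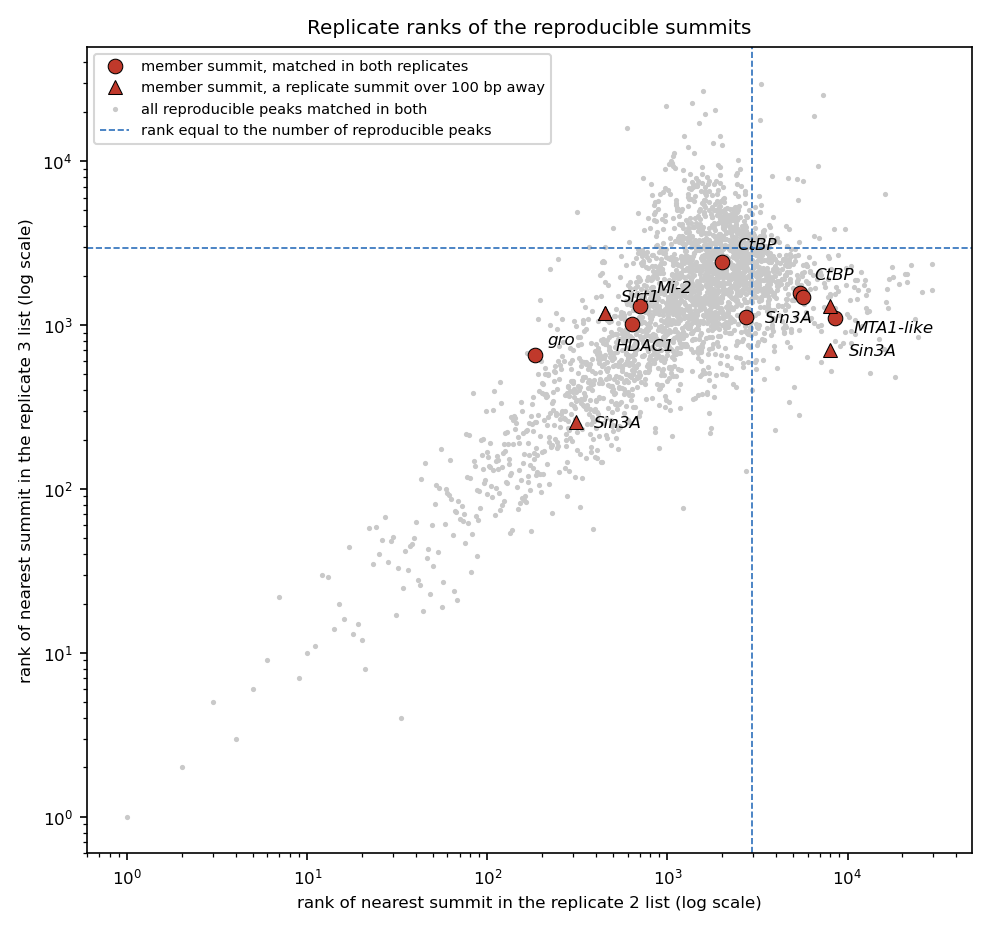
Rank of the nearest summit in the replicate 2 list (horizontal) and the replicate 3 list (vertical), both on log scales with 1 as the strongest, for the 13 member summits in red and for all reproducible peaks matched in both replicates in grey; triangles are member summits with a replicate summit over 100 bp away, and dashed lines mark rank 2942. The summits of gro, Sirt1, HDAC1, Mi-2 and the strongest of Sin3A sit at lower left with ranks from 183 to 1309, and those of MTA1-like, the CtBP pair and the Sin3A pair lie right of the vertical line, the Sin3A pair having its nearest replicate 2 summit at 819 bp and 1021 bp.

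Candidates of the member windows were also more numerous in replicate 3. There were 55 in the list of replicate 2 and 89 in that of replicate 3, a ratio of 1.62, although each list holds 30000 peaks. In 9 of the 10 members replicate 3 had more, from 5 against 4 in gro to 18 against 6 in Sin3A. The same count was not made over all protein-coding genes, so it has no background beside it. The density in the member windows was 37.0 summits per 100 kb in replicate 2 and 59.9 in replicate 3, against 25.3 and 25.9 over the windows of all protein-coding genes, where both lists were nearly level. Of the 64 pooled candidates of the members that did not pass, 43.8% had a summit within 100 bp in replicate 2 and 67.2% in replicate 3, where all 27058 such candidates had 55.1% and 58.3%. What set the replicates apart was not tested.

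Candidates were dense in the member windows. The pooled list had 77 there, or 51.8 per 100 kb, against 25.6 per 100 kb over all protein-coding windows, which is 2.03 times as many. For reproducible summits the densities were 8.75 and 2.64 per 100 kb, a ratio of 3.32. Of the 77 candidates 16.9% passed the IDR threshold, against 9.81% of all pooled candidates. Mi-2, Sin3A and CtBP, the 3 longest members, held 53 of the 77. Per kb of window the number ran from 0 in CoRest and 0.127 in Su(var)3-3 to 0.784 in Sin3A, with CtBP at 0.752, Sirt1 at 0.751 and Mi-2 at 0.684. Sirt1 thus had as many per kb in its window of 7988 bp as CtBP in one of 18627 bp. These numbers include candidates that lie in neighbouring or overlapping genes, such as DnaJ-H at Sirt1 and Su(Tpl) at Mi-2.

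**Figure D3:**
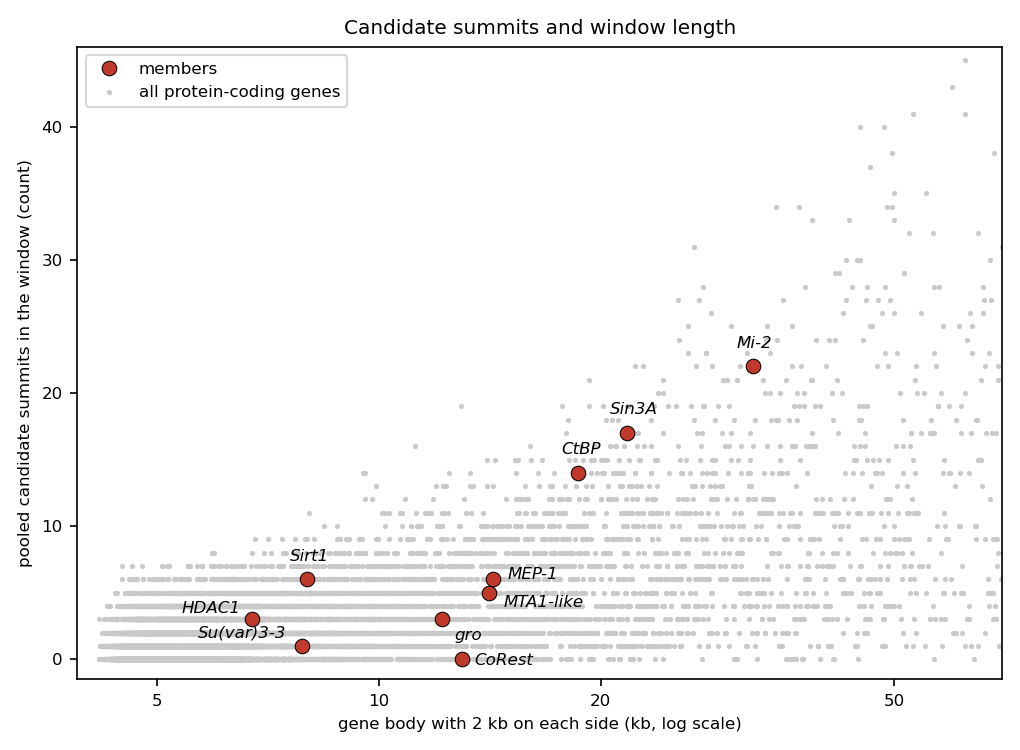
Number of pooled candidate summits (vertical) against the length of the gene body with 2 kb on each side (horizontal, log scale) for the 10 members in red and all protein-coding genes in grey; 189 genes beyond 70 kb or 45 summits lie off the axes. Mi-2 with 22, Sin3A with 17 and CtBP with 14 lie in the upper part of the grey points at their length, and CoRest with 0 lies on the lower edge.

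Most member summits were intronic. By annotation 9 of the 13 fell in introns, 2 in exons of a non-coding gene and 2 between genes, and none in coding sequence or a UTR. The introns at Sirt1 and HDAC1 were those of their neighbours DnaJ-H and Src64B. Over all reproducible peaks 48.7% were intronic, 39.6% intergenic, 6.73% in 5′ UTRs and 0.306% in coding sequence. Those shares cover the whole arms, while member summits came only from gene bodies and their flanks, so they are not like for like. Farther than 500 bp from any annotated start site were 6 of the 13, against 47.7% of all reproducible peaks, a share near that of the members. The nearest protein-coding start belonged to the member at 9 summits and to another gene at 4, which were the stronger one of Sirt1 and those of HDAC1, Mi-2 and MTA1-like. This split was not counted for the windows of all protein-coding genes, so it has no background beside it. Of the 25 annotated start sites of the members, 7 had a reproducible summit within 500 bp, against 11% of the 19607 start sites of all protein-coding genes. A pooled candidate was that near at 15 of the 25, against 35.7% of all, a candidate of replicate 2 at 13, against 32.8%, and one of replicate 3 at 17, against 39.5%. Start sites of 1 gene can share a summit. The 7 belong to gro with 3, Sin3A with 2, and Sirt1 and MTA1-like with 1 each.

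The sequence around the summits, 201 bp in each case, was searched for 9 motifs on both strands. CGATA was found at 4 of the 13 member summits, against 24.7% of all reproducible peaks: at gro, at the stronger summit of Sirt1, at MTA1-like, where both matches lie in the 13 bp not printed above, and at the CtBP summit 569 bp upstream of its second start. The longer TATCGATA, the DNA replication-related element that contains CGATA, was at none, against 2.11%. GAGAG was at 2, with 3 matches at the first CtBP summit and 5 at the Sin3A summit 417 bp upstream of its inner start, against 23.2% of all reproducible peaks. CANNTG, the E-box core, was at 10 of the 13, against 57.0%, and CACGTG, a Hairy-type E-box within it, at none, against 1.84%. TTCNNNGAA, the STAT site, was at 1, the Sin3A summit upstream of its outermost start, against 5.23%, and TCACAC, the core of a promoter motif, at 1, against 9.01%. CAGGTA, bound by Zelda, and GGCGCC, a Brinker-type site, were at none, against 3.81% and 1.60%. A match is a run of letters and not evidence that a factor binds, and with 13 summits these counts carry little weight. The GC content of the 201 bp had a median of 38.3% and ran from 21.4% at the stronger Sirt1 summit to 54.2% at the first CtBP summit, against a median of 33.3% over all reproducible peaks.

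The other 22 genes of the same machinery, listed by function, had a reproducible summit in the window in 10 cases, against the 22.6% given above, and within 500 bp of an own start in 3, against 12.1%. The 3 were Sirt6, a sirtuin deacetylase, with a signal of 316 at 132 bp upstream of its start, Ing1, a PHD finger gene annotated as CG7379, with 354 and 268 at 128 bp and 329 bp upstream, and ebi, a partner of the corepressor SMRTER, with 166 at 82 bp upstream. Summits deep in introns were stronger than any of the members in 3 cases. These were simj, which encodes the p66 subunit of NuRD and had 6 reproducible summits up to 956 at rank 22, Smr, the SMRTER gene, with 8 up to 585, and Gug, the Atrophin gene, with 3 up to 546. Of simj and the members described above as part of NuRD, simj thus had the strongest site. HDAC1 reached 292 in its flank, Mi-2 257 and MTA1-like 165. At Caf1-55, a histone chaperone, and at MRG15, a chromodomain protein, the summits of 824 and 642 lay 128 bp and 123 bp upstream of the starts of their neighbours mRpS10 and Cp190, as that of HDAC3 at 171 lay 113 bp upstream of Snr1. HDAC4 had 2 intronic summits of 147 and 137. Of the 10 genes with a reproducible summit, Smr, simj, HDAC4 and Gug had long windows, of 62416, 29996, 26946 and 26748 bp. The windows of the rest ran from 5670 bp in MRG15 to 10501 bp in Sirt6, against a median of 6.17 kb over all protein-coding genes. The best candidate was below the threshold in 8 genes, from 34.9 in Pf1 to 117 in Sap130, with MBD-like at 83.2, Chd3 at 72.7, Sirt4 at 71.2, Bin1 at 59.7, Sirt2 at 53.4 and HDAC6 at 48.3. A pooled candidate lay in the window of 18 of the 22 genes, against 72.5% of all protein-coding genes. HDAC11, Sirt7, Sap30 and H had none. Their windows ran from 5748 bp in HDAC11 to 10978 bp in H, shorter than the 12968 bp of CoRest.

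**Figure D4:**
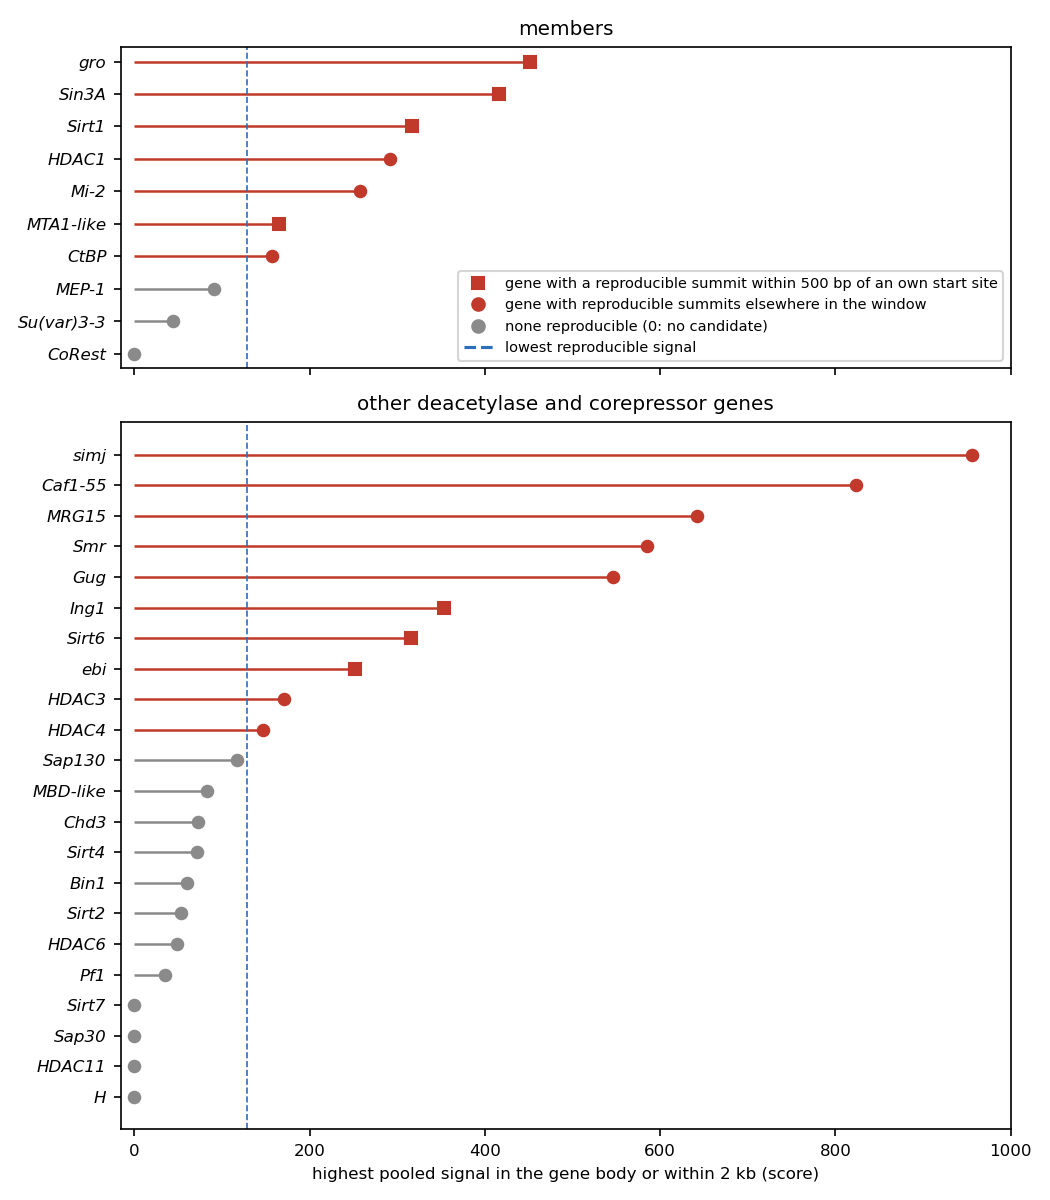
Highest pooled signal (horizontal axis, the authors' score) in the gene body or within 2 kb for the 10 members above and the 22 other genes below; squares are genes with a reproducible summit within 500 bp of an own start site, which at Sin3A and ebi is not the strongest one, red circles genes with reproducible summits elsewhere and grey circles genes with none, drawn at 0 where there is no candidate. The members run from 0 at CoRest to 452 at gro, and 5 of the other genes, led by simj at 956, exceed gro.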

How the data were processed

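Chromatin immunoprecipitation and sequencing of Su(var)2-10-GFP was analysed from peak lists on dm6, 1 group of 2 replicates. Per the submitters' file notes, each replicate was called against a control, a pooled list was made from both, and the IDR-filtered list came from both. Which aligner, caller and IDR threshold were used is not given in the labels or file notes. Signal is the authors' score, deposited without a fixed unit, so values were compared only within a list. The authors' deposited −log10 q per peak gave its q-value, and its deposited offset the summit position. Counts of reads were not used, so the depth per sample is unknown and no interval is given. Neighbouring summits were never closer than 199 bp in any list, and the 2942 reproducible peaks merge into 2536 regions.

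Genes and start sites came from Ensembl release 115 (BDGP6.54), without transposable element records, and sequence from the RefSeq Release 6 assembly. No peak ended beyond the reference length of its arm. A window was the gene body with 2 kb on each side, and a summit was counted for every gene whose window held it. Where annotations overlapped, a summit took the first that applied of 5′ UTR, coding exon, 3′ UTR, other exon, intron and intergenic. Matching between lists required summits within 100 bp. Of the 22 other genes, 20 matched by symbol and 2, Pf1 and Ing1, through RefSeq synonyms. Lists on dm3 were not used, having no annotation here. Python 3.11.15, numpy 2.4.6, pandas 2.3.3 and matplotlib 3.10.9 were used, and the counting was tested on simulated data with planted summits.

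Members, lists and motifs were chosen with earlier results of these data known. Genes were named by rule: all members, other listed genes with a reproducible summit within 500 bp of an own start, the gene with the nearest start at each described summit, and the next stronger and weaker promoter peaks. The remaining listed genes are named outside that rule, chosen after their values were seen. Alternatives changed the window margin, the start-site distance and rule, the list and the matching distance.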

Additional observations from a re-analysis of the deposited data

How the results depend on the processing

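With no margin around the gene body, 4 members held 8 reproducible summits, and 4 of the 22 other genes had one, against 7.66% of all protein-coding genes. With the 1471 reproducible peaks of highest signal, 5 members held 5 summits, and 2 members, gro and Sirt1, had one within 500 bp of an own start. Among only the best 2942 peaks of each replicate, 5 of the 13 member summits were matched in both. Counting a summit only where the nearest protein-coding start is the member's own, an alternative chosen after seeing the data, left 4 members with a summit in the window and 3 near a start. For the window the share of all protein-coding genes was 12.9%. With the best peaks of 1 replicate in place of the reproducible list, members with a summit in the window numbered 6 to 7, members with one near a start 3 to 4, member summits 9 to 14, other genes with one in the window 10 to 11 and near a start 3 to 4. The member missing without replicate 3 was MTA1-like in both counts. For the other gene counts given here the share of all protein-coding genes was not computed, so they have no background beside them. Of 34 alternative values, 27 stayed within 1.5 times the reported count, among them windows of 1 and 5 kb, start distances of 250 and 1000 bp, and matching within 50 or 200 bp. No paired analysis was possible because there is 1 group. Peak lists without reads limit what can be said of weak candidates.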
